A study of Homo sapiens with 2 samples.

Results

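MT-RNR1 and MT-RNR2 are the 2 ribosomal RNA genes of the human mitochondrial chromosome, and they were taken by their feature IDs, CHM13_G0057495 and CHM13_G0057497, from 63494 annotated features. Their RNA was counted in PAR-CLIP libraries of HEK293T, an established human embryonic kidney cell line. In PAR-CLIP, RNA and the protein in contact with it are joined by UV in living cells and purified together. The cells expressed either Ku80 with SBP and tandem FLAG tags (SFB-Ku80) or the SFB empty vector, stably per the labels, while the study's methods describe the Ku80 plasmid as one for transient transfection. Both were fed 0.1 mM of the photoreactive nucleoside 6SG, were irradiated with 0.4 J/cm2 of UV at 365 nm and went through streptavidin resin and then FLAG resin. Each condition was sequenced as 1 library, called the vector library and the Ku80 library, so the differences have no replicate check and no p-value is given. The design asks which RNA comes down with the Ku80/Ku70 complex, and the vector library is the background of the same purification.

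The mitochondrial ribosome makes the proteins that the mitochondrial chromosome encodes. MT-RNR1 gives the 12S rRNA of its small subunit and MT-RNR2 the 16S rRNA of its large subunit. Both are cut out of long transcripts of the same strand, in which tRNA genes lie between the rRNA and mRNA genes and mark most of the cleavage sites. They are made and kept inside mitochondria, while the 18S, 5.8S and 28S rRNAs of the cytosolic ribosome come from the 45S pre-rRNA of the nucleolus. Ku80 and Ku70 form the DNA-end binding part of DNA-PK.

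On the CHM13 v1.1 genome MT-RNR1 covers bases 72 to 1025 of chromosome M and MT-RNR2 bases 1095 to 2652, both on the plus strand. Each is annotated as a single interval, 954 and 1558 bases long. Both names were given by the order and length of the mitochondrial genes in RefSeq, in which all 37 genes were paired with lengths that differed by at most 1 base. MT-TF, MT-TV and MT-TL1, tRNA genes, lie directly before, between and after the rRNA genes.

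The libraries had 19775629 counts on features for the vector library and 17892815 for the Ku80 library. In the table of uniquely mapped pairs they had 29863974 and 22173753 read pairs, of which 20.3% and 6.51% were assigned to a feature and 21.5% and 47.1% were unmapped. The gene of the tagged protein, XRCC5, had 1118 counts in the vector library and 43907 in the Ku80 library, and so was higher in the library labelled SFB-Ku80. Reads of the transgene and of the endogenous gene cannot be told apart there. Its feature was named by its place between TMEM169 and MARCHF4. Other names are not paired with the features in the count tables, so markers of HEK293T were not checked.

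Mitochondrial rRNA made up a smaller share of the Ku80 library than of the vector library. MT-RNR2 had 1755575 counts in the vector library and 155344 in the Ku80 library. MT-RNR1 had 635505 counts in the vector library and 93390 in the Ku80 library. Both genes were therefore lower in the Ku80 library than in the vector library. Of all features, MT-RNR2 ranked 1 and MT-RNR1 ranked 2 by counts in the vector library, and they ranked 6 and 13 in the Ku80 library.

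As a share of the counts on features, MT-RNR2 was 8.88% of the vector library (95% Wilson interval 8.86 to 8.89%) and 0.868% of the Ku80 library (0.864 to 0.873%). MT-RNR1 was 3.21% (3.21 to 3.22%) and 0.522% (0.519 to 0.525%). The share in the vector library was thus 10.2 times as high for MT-RNR2 (95% log-normal counting interval 10.2 to 10.3) and 6.16 times as high for MT-RNR1 (6.12 to 6.20). These intervals cover counting error only. They treat counts as independent, which mates of a pair and PCR copies are not, so they are too narrow. Each share is a share of the RNA that came through the purification, so less of this RNA and more of other RNA in the purified material cannot be told apart.

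The uniquely mapped pairs gave the same direction with a smaller difference. MT-RNR2 had 764512 such pairs in the vector library, 12.6% of the pairs on features, and 74424 in the Ku80 library, 5.16%. MT-RNR1 had 285054 pairs, 4.70%, and 42631 pairs, 2.95%. The shares were 2.45 (2.43 to 2.46) and 1.59 (1.58 to 1.61) times as high in the vector library. By this measure both genes were still among the 3 features with the most pairs in the Ku80 library, where MT-RNR2 ranked 2 and MT-RNR1 ranked 3.

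The size of the difference thus depended on what the rRNA was divided by. Of all read pairs sequenced, mapped or not, 2.56% of the vector library and 0.336% of the Ku80 library were unique pairs on MT-RNR2. For MT-RNR1 these were 0.955% and 0.192%. On this basis the vector library was 7.63 times (7.57 to 7.68) and 4.96 times (4.91 to 5.02) as high. MT-RNR2 differed more than MT-RNR1 on each of these 3 bases. For both genes summed, the share of counts was 8.70 times as high in the vector library. Outside the 45S units and 2 neighbouring features of chromosome 17 that led the Ku80 counts, a denominator chosen after the values had been seen, it was 3.22 times as high. The unmapped share also differed between the libraries, as given above, and its part in these values was not tested.

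**Figure D1:**
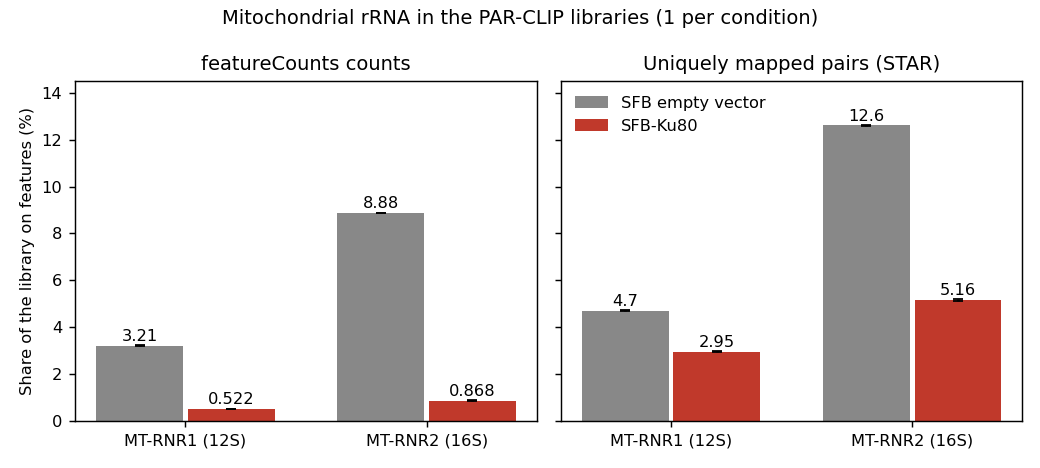
Share of each library on MT-RNR1 and MT-RNR2, in percent of the featureCounts counts (left) and of STAR's unique pairs (right), with bars for the vector library (grey) and the Ku80 library (red), and 95% Wilson intervals. Both genes are lower in the Ku80 library in both panels, with 8.88% against 0.868% for MT-RNR2 counts and 12.6% against 5.16% for its unique pairs.

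The rRNA genes themselves were counted much alike by both counters. The count takes both mates of a pair, so that a unique pair gives 2 counts, and further counts come from other reads such as multimapping ones. MT-RNR1 had 2.23 counts per unique pair in the vector library and 2.19 in the Ku80 library, and MT-RNR2 had 2.30 and 2.09. The median feature with at least 100 unique pairs had 2.24 in the vector library and 2.51 in the Ku80 library. Counts beyond 2 per unique pair were 10.3% and 8.70% of those of MT-RNR1 and 12.9% and 4.18% of those of MT-RNR2. Over all features together there were 3.26 counts per unique pair in the vector library and 12.4 in the Ku80 library. The total on features was 19775629 counts against 6062669 unique pairs in the vector library, and 17892815 against 1443251 in the Ku80 library.

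The 12S rRNA differed less between the libraries than the 16S rRNA. Per base of annotated length, MT-RNR1 had 666 counts and MT-RNR2 had 1127 in the vector library. In the Ku80 library they had 97.9 and 99.7 counts per base, closer to each other than in the vector library. The ratio of MT-RNR1 to MT-RNR2 per base was 0.591 in the vector library (95% log-normal counting interval 0.589 to 0.593) and 0.982 in the Ku80 library (0.974 to 0.990). Between the libraries this ratio differed 1.66 times (1.65 to 1.68). It needs no library total, since both genes were counted in the same library.

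In unique pairs the ratio per base was 0.609 in the vector library and 0.935 in the Ku80 library, a difference of 1.54 times (1.52 to 1.56). On the strand of the genes alone it was 0.635 and 0.980. On the opposite strand it was 0.457 and 0.669. The ratio was higher in the Ku80 library by all 4 ways of counting. With 1 library per condition, how much this ratio varies between repeats of the same purification was not measured.

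Most read pairs on both genes came from the strand that encodes the rRNA. The STAR table has 2 stranded columns, and the kit is not stated to mark the strand. Over all features outside the 45S units, the second column held 75.1% of the pairs in the vector library and 67.4% in the Ku80 library, so this was read as the strand of the annotated gene. The rRNA genes are in this pool and weigh in it. The median of 1316 features, which rests little on any 1 gene, was 82.3% and 78.3%. MT-ND5 and MT-CYB, given below, had most pairs in the first column. MT-RNR1 had 31416 pairs in the first and 253638 in the second column in the vector library, which is 89.0% in the second (95% Wilson interval 88.9 to 89.1%). In the Ku80 library it had 4345 and 38286, or 89.8% (89.5 to 90.1%). MT-RNR2 had 112379 and 652135 pairs in the vector library, or 85.3% (85.2 to 85.4%). In the Ku80 library it had 10606 and 63818, or 85.7% (85.5 to 86.0%).

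The share on the coding strand was thus nearly alike in both libraries for each gene, and higher for MT-RNR1 than for MT-RNR2 in both. Over the 1316 features with at least 100 pairs in each library and no loss of pairs to a feature on the other strand, within 2%, the median was 82.3% in the vector library and 78.3% in the Ku80 library. Of these features, 12.3% and 14.7% had a higher share than MT-RNR1, and 32.3% and 28.3% a higher share than MT-RNR2. Per read pair of the library, the pairs on the opposite strand were 5.37 times as high in the vector library for MT-RNR1 (5.20 to 5.54) and 7.87 times for MT-RNR2 (7.71 to 8.03). Those on the coding strand were 4.92 times (4.87 to 4.97) and 7.59 times (7.53 to 7.65) as high. Both strands were thus lower in the Ku80 library by similar factors.

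Mitochondrial mRNA on the same strand gave a lower share. Of the plus-strand mRNA genes, 5 had stranded columns that summed to the unstranded one within 2% in both libraries. They were MT-ND1, MT-ND2, MT-ND3 and MT-ND4, subunits of complex I, and MT-CO3, a subunit of cytochrome c oxidase. Their share in the second column was 61.9 to 83.9% in the vector library and 48.0 to 66.7% in the Ku80 library. All 5 were below both rRNA genes in both libraries. MT-CO3 had the highest share in the vector library, 83.9% (80.1 to 87.1%), and its interval overlapped that of MT-RNR2. MT-CYB, also on the plus strand, met the limit of 2% in the vector library only, where its share was 39.7% (38.7 to 40.6%). In the Ku80 library it was 38.1%. MT-ND5, MT-CO1 and MT-ND4L, also on the plus strand, missed the limit in both libraries. In the vector and Ku80 libraries MT-ND5 was at 30.5% and 29.5%, MT-CO1 at 76.3% and 69.7%, and MT-ND4L at 70.2% and 71.0%. Most pairs of MT-CYB and MT-ND5 were thus in the first column, unlike those of the rRNA genes, and the reason was not tested.

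**Figure D2:**
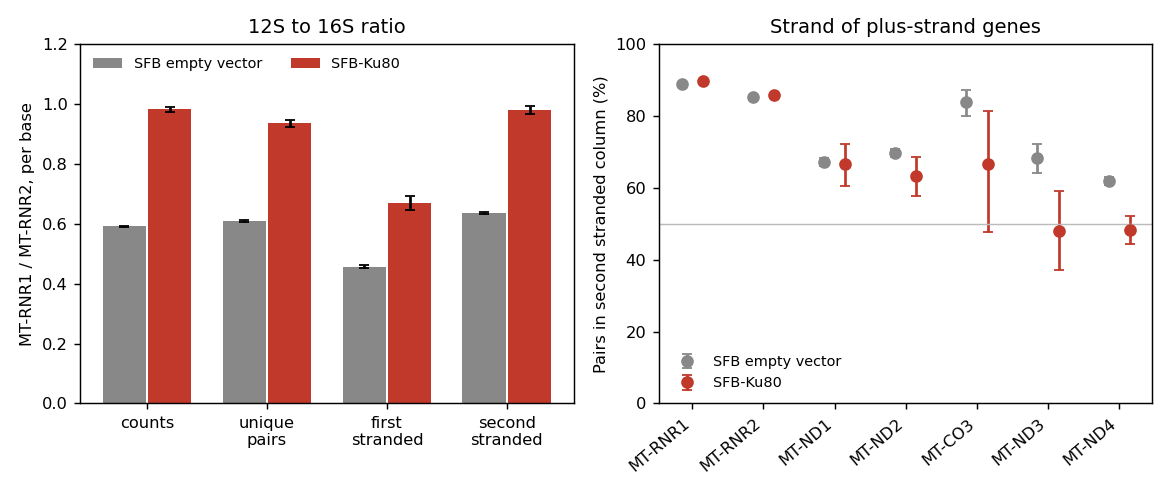
Left, the ratio of MT-RNR1 to MT-RNR2 per base by 4 ways of counting, with 95% log-normal counting intervals, where the Ku80 library (red) is above the vector library (grey) each time. Right, the percent of unique pairs in the second stranded column for the rRNA genes and 5 plus-strand mRNA genes, with 95% Wilson intervals, where the rRNA genes lie at 85.3 to 89.8%.

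The rest of the mitochondrial chromosome was measured less deeply. The mitochondrial annotation has 43 features, of which MT-CO2, MT-ATP6 and MT-ATP8 are each listed 2 times at the same position and 3 match no RefSeq gene. A read on a feature that is listed 2 times was not assigned, so these 3 mRNA genes are at 0 counts in both libraries and were not measured. The other 10 of the 13 mRNA genes had at least 100 counts. Of the 22 tRNA genes 2 had, MT-TM and MT-TP, and 6 had 0 counts in both libraries. The tRNA genes beside the rRNA genes were nearly empty. MT-TF had 1 count in the vector library and 0 in the Ku80 library, MT-TV had 7 and 2, and MT-TL1 had 3 and 0. Reads that reach from a tRNA into the neighbouring rRNA overlap more than 1 feature and were not assigned.

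Within each library the rRNA genes made up nearly all of the mitochondrial counts. They held 94.9% of the counts on chromosome M in the vector library (95% Wilson interval 94.8 to 94.9%) and 96.6% in the Ku80 library (96.5 to 96.7%). Among the mRNA genes MT-CYB, the cytochrome b of complex III, had the most counts per base, 18.9 in the vector library and 1.35 in the Ku80 library. Counts take both strands, and only 39.7% and 38.1% of the MT-CYB pairs were in the second column. Levels per base of the coding strand alone were not compared. In counts per base on both strands together, MT-RNR1 was 35.2 times and MT-RNR2 59.6 times as high as MT-CYB in the vector library. In the Ku80 library they were 72.5 and 73.9 times as high. The order of counts per base in the vector library was thus MT-RNR2, MT-RNR1 and then the mRNA genes. In the Ku80 library the first and second were at 99.7 and 97.9 counts per base.

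The rRNA differed less between the libraries than the summed mitochondrial mRNA. Over the mRNA genes summed, there were 18.6 rRNA counts per mRNA count in the vector library and 29.2 in the Ku80 library, a ratio 1.57 times as high (95% log-normal counting interval 1.54 to 1.61). The mRNA sum takes both strands, and most pairs of MT-ND5 and MT-CYB were in the first column, as given above. MT-CO2, MT-ATP6 and MT-ATP8 add 0 to it because they were not measured. On the coding strand alone the ratio was not computed. In unique pairs of both strands the ratio was 18.5 and 31.7, or 1.72 times (1.66 to 1.78). Taken apart, MT-RNR1 per mRNA count was 2.22 times as high in the Ku80 library (2.17 to 2.27) and MT-RNR2 1.34 times (1.31 to 1.37). These ratios again need no library total. In unique pairs they were 2.30 and 1.50 times.

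To set the genes beside all others, log2 ratios of the Ku80 to the vector library were scaled to the counts outside the 45S units, with a pseudocount of 1. On this scale MT-RNR1 was at -2.36 (95% counting interval -2.37 to -2.35) and MT-RNR2 at -3.09 (-3.10 to -3.09). Both were at least 2-fold lower in the Ku80 library, as were 51.1% of the 17478 features whose counts in both libraries summed to 100 or more. The median feature was at -1.04, so that MT-RNR1 was at -1.32 and MT-RNR2 at -2.05 relative to it. Relative to the median feature, 25.0% of the features were at least 2-fold lower, both rRNA genes among them. Among features with 1000 or more counts MT-RNR1 was at -0.59 relative to their median, no longer 2-fold lower, and MT-RNR2 at -1.33. Of all 17478 features, 18.5% had a lower log2 ratio than MT-RNR1 and 7.93% a lower one than MT-RNR2. The scaling total includes the 2 chromosome 17 features that led the Ku80 counts. Without them, a choice made after the values had been seen, MT-RNR1 was at -1.19 and MT-RNR2 at -1.92. The 51.1% and the median of -1.04 rest on the total with them. Values relative to the median feature do not depend on that total.

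Abundant features had other medians. Among the 636 features with a mean of at least 100 CPM (counts scaled to a library total of 1000000) over both libraries, a limit set after the values had been seen, the median log2 ratio was -2.48, with quartiles at -3.44 and -0.78. Both rRNA genes lay within these quartiles, and 72.5% of these features were at least 2-fold lower in the Ku80 library. At a mean of at least 1000, with 55 features, the median was -0.60 and the quartiles -2.90 and 0.89, so that MT-RNR2 lay below them. Of these 55 features, 47.3% were at least 2-fold lower. In unique pairs MT-RNR1 was at -0.61 and MT-RNR2 at -1.23, against a median feature at -0.28. Only MT-RNR2 was at least 2-fold lower here, beside 26.1% of 10205 features. Relative to the median feature neither gene was, and 18.7% of features were.

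**Figure D3:**
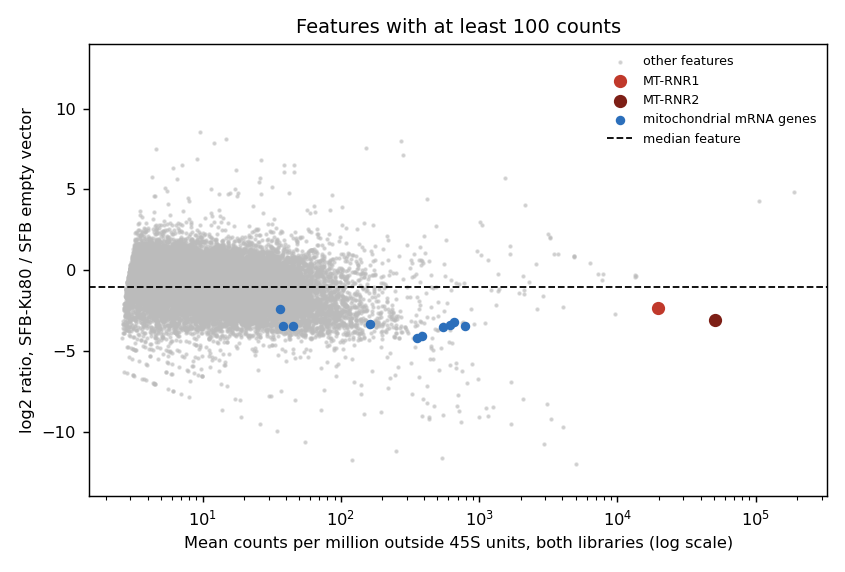
The log2 ratio of the Ku80 to the vector library against the mean CPM outside the 45S units (log axis) for 17478 features with at least 100 counts, each a point, with the rRNA genes in red and mitochondrial mRNA genes in blue. MT-RNR1 at -2.36 and MT-RNR2 at -3.09 lie below the median feature at -1.04 (dashed) and among the most abundant features.

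All 10 measured mRNA genes were at least 2-fold lower in the Ku80 library on this scale, beside 51.1% of the 17478 features. They ran from -4.19 for MT-ND1 to -2.40 for MT-ND3, with a median of -3.48. In unique pairs their median was -1.74, and 9 of the 10 were at least 2-fold lower, beside 26.1% of the 10205 features. MT-RNR1 was above all 10 in both counts and unique pairs, and MT-RNR2 was above all except MT-ND3. MT-ND3 had few counts, 1164 and 166, and its interval, -2.63 to -2.16, took in the value of MT-RNR1. The 5 genes closest to the log2 ratio of the rRNA genes summed, -2.86, were all mRNA genes. They were MT-ND5 at -3.20, MT-ND3 at -2.40, MT-ND6 at -3.35, MT-CYB at -3.40 and MT-CO1 at -3.47. MT-ND5, MT-ND3 and MT-ND6 encode complex I subunits and MT-CO1 the catalytic subunit of cytochrome c oxidase. Likeness is the absolute difference of the log2 ratios over the 2 libraries, with 12 genes compared.

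MT-CO1 also had the most counts of the mRNA genes, 28068 in the vector library and 1909 in the Ku80 library. It was followed by MT-ND5 with 22779 and 1866, MT-CYB with 21585 and 1540, MT-ND4 with 19531 and 1264, and MT-ND2 with 14087 and 633. Every one was higher in the vector library. The 2 measured tRNA genes had higher log2 ratios than the rRNA genes. MT-TM, the methionine tRNA, had 409 counts in the vector library and 221 in the Ku80 library, a log2 ratio of -0.48, above the median feature. MT-TP, the proline tRNA, had 204 and 37, at -2.03 (-2.53 to -1.52), an interval that took in MT-RNR1. In unique pairs both tRNA genes turned positive, with 139 and 49 pairs for MT-TM at 0.64 (0.17 to 1.11) and 82 and 20 for MT-TP at 0.15 (-0.56 to 0.85). The direction of neither tRNA gene between the libraries thus held in both measures. The mRNA of MT-ND6, the only mRNA gene of the minus strand, lay within the range of the plus-strand genes.

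**Figure D4:**
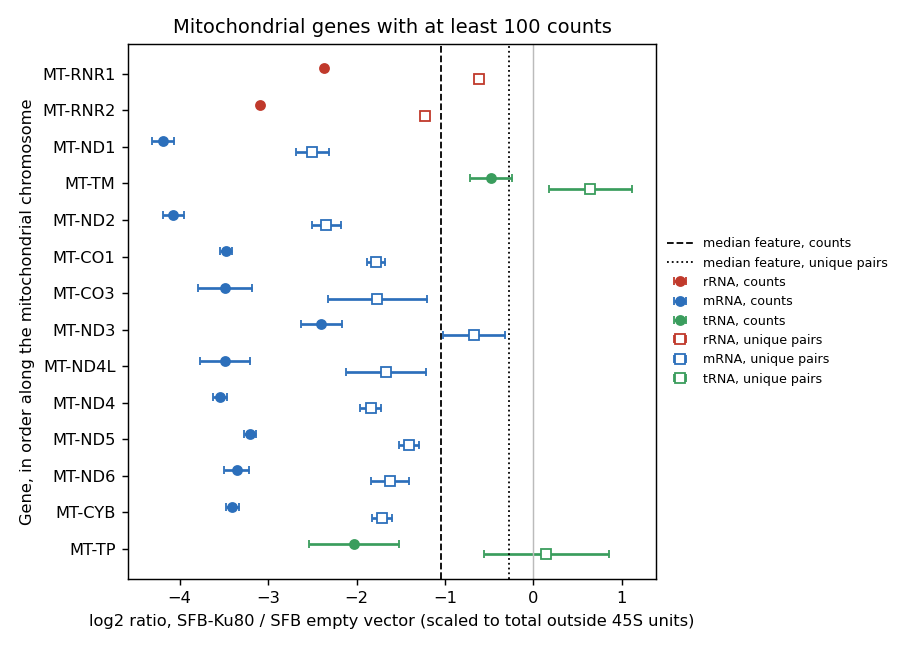
The log2 ratio of the Ku80 to the vector library for the mitochondrial genes with at least 100 counts, in chromosome order, from counts (filled) and unique pairs (open), with 95% counting intervals and the median feature of each measure as a dashed and a dotted line. MT-RNR1 lies to the right of all 10 mRNA genes, with an interval overlapped by that of MT-ND3, and to the left of the median feature by both measures.

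Mitochondrial rRNA and 45S-derived rRNA differed in opposite directions between the libraries. The 45S units, 219 features of the length of the 45S gene that enclose features of at least 2 of the mature rRNA lengths, had 573107 counts in the vector library and 3380416 in the Ku80 library. Reads on the enclosed mature rRNA features were not assigned, so these counts come from the rest of each unit, which holds the transcribed spacers. In a unit that encloses only 2 of the mature lengths, reads on the remaining mature rRNA would count too, which was not checked. A multimapping read was counted at each reported place. In the vector library there were 4.17 counts on mitochondrial rRNA for each count on the 45S units, and in the Ku80 library there were 0.0736. This ratio was 56.7 times as high in the vector library (95% log-normal counting interval 56.4 to 57.0). It was 40.1 times for MT-RNR1 (39.8 to 40.4) and 66.7 times for MT-RNR2 (66.3 to 67.1). In unique pairs there were 106 on mitochondrial rRNA for each on the 45S units in the vector library and 1.94 in the Ku80 library, a difference of 54.6 times (53.4 to 55.8).

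The mature cytosolic rRNAs were covered by the BLAST alignment to the rDNA repeat, given as reads in each 10-base bin. This is a signal, since a read falls into every bin that it covers. Its scale differs from that of counts, so only the change between the libraries was compared, and no counting interval applies. Per read pair of the library, the signal of the Ku80 library was 2.79 times that of the vector library on 18S, 3.56 times on 5.8S and 1.83 times on 28S. By counts per read pair it was 0.198 times on MT-RNR1 and 0.119 times on MT-RNR2. Against 18S, MT-RNR1 was thus 14.1 times and MT-RNR2 23.4 times as high in the vector library. Against 28S they were 9.26 and 15.4 times as high. Both rRNAs of the mitochondrion were lower in the Ku80 library and the 18S, 5.8S and 28S rRNAs higher.

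**Figure D5:**
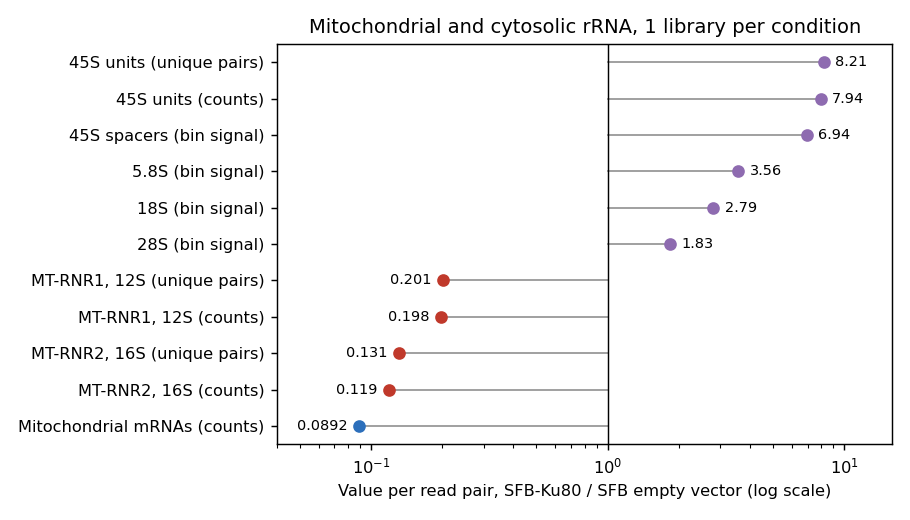
Value per read pair in the Ku80 library divided by that in the vector library (log axis) for mitochondrial rRNA (red), mitochondrial mRNA (blue) and 45S-derived rRNA (purple), with the measure in brackets and 1 library per condition. The mitochondrial rRNA values lie between 0.119 and 0.201. Those of the 45S-derived rRNA lie between 1.83 and 8.21, of which the mature rRNAs reach 3.56 at most.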

How the data were processed

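RNA from PAR-CLIP purifications of 1 SFB empty vector and 1 SFB-Ku80 culture was sequenced. Read counts on annotated features were deposited by the authors, who ran featureCounts 2.0.2 on a STAR alignment to CHM13 v1.1, with pairs mapped at both ends, multimapping reads counted and strand not used. The authors also deposited STAR counts of uniquely mapped pairs, unstranded and per strand (STAR 2.7.6a per the submitters' processing notes). The deposited BLAST signal counts reads per 10-base bin of rDNA, unscaled. The BLAST version is not given in the sources used here. From these files, shares with 95% Wilson intervals, ratios with log-normal counting intervals and log2 ratios (pseudocount 1, at least 100 counts, scaled to counts outside the 45S units) were computed with Python 3.11.15 and edgeR 4.0.16 (TMM factors only). No test was run. Features within 1% of the RefSeq 45S lengths that enclose at least 2 mature rRNA lengths were taken as 45S units. The strand shares leave out features whose stranded columns differ from the unstranded one by over 2% in either library, apart from MT-CYB, MT-ND5, MT-CO1 and MT-ND4L. Genes were named by a fixed rule: the rRNA genes, the tRNA genes beside them, the 5 mitochondrial genes closest in log2 ratio, the 5 with most counts, and XRCC5. MT-ND1, MT-CO3, MT-ND4L, MT-TM and MT-TP were added after their values had been seen. The members and lists were chosen with earlier results of these data known. The log2 computation and the Wilson intervals were tested on simulated data. No sequence of the mitochondrial genes is shown here.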

Additional observations from a re-analysis of the deposited data

How the results depend on the processing

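No library was left out, since each condition has 1. No paired analysis was possible because a single library stands for each group. The alternatives run turned no direction for the rRNA genes or the 10 mRNA genes, and for the values that moved, the cause was not tested.

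The share of mitochondrial rRNA was 8.70 times as high in SFB empty vector as in SFB-Ku80. With STAR's unstranded, first and second stranded columns it was 2.13, 2.95 and 1.88 times. Outside the 45S units it was 7.27 times, of all read pairs 6.66 times and over features counted at least 10 times in each library 8.78 times. Without the 45S units and the 2 features of chromosome 17 that led the SFB-Ku80 counts, chosen after the values had been seen, it was 3.22 times. In unique pairs outside the 45S units, also chosen then, it was 2.05 times.

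The ratio of MT-RNR1 to MT-RNR2 in SFB empty vector was 0.609, 0.457 and 0.635 with the STAR columns in the same order and 0.362 with raw counts. In SFB-Ku80 it was 0.935, 0.669 and, unmoved, 0.980, and 0.601 with raw counts. Between the libraries it differed 1.54, 1.47 and 1.54 times.

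The log2 ratio of MT-RNR1 was -2.62 with all counts, -1.87 with edgeR TMM, -1.84 with median-of-ratios size factors, -0.61 with STAR's unstranded column, -0.43 with its second stranded one and -1.19 without the 45S units and the 2 chromosome 17 features. That of MT-RNR2 was -3.35, -2.60, -2.57, -1.23, -1.06 and -1.92. Relative to the median feature, MT-RNR1 was at -1.68 with at least 10 counts and -0.59 with at least 1000, and MT-RNR2 at -2.41 and -1.33. With at least 1000, MT-RNR1 was thus no longer 2-fold lower. MT-TM turned from -0.48 to 0.013 with edgeR TMM, 0.041 with median-of-ratios size factors, 0.64 and 0.70 with STAR's unstranded and second stranded columns and 0.69 without the 45S units and the 2 chromosome 17 features. MT-TP turned from -2.03 to 0.15 with the unstranded column alone. A pseudocount of 0.5 moved neither gene, and the coding-strand share did not move when taken over the unstranded column.

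Mitochondrial rRNA against the 45S units differed 54.6 times with STAR's unstranded column. Against the BLAST signal on 18S and 28S it differed 15.3 times. Counts per base cancel in this comparison and so test nothing.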
